A study of Macaca fascicularis with 16 samples.

Results

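Tamoxifen given alone was compared with placebo in the endometrium of postmenopausal cynomolgus macaques (Macaca fascicularis), using 8 of the 16 expression arrays of the series, 1 per animal. The 4 tamoxifen animals received 20 mg of the drug per 1800 kcal of diet, and the 4 control animals received placebo, each for 4 months; the arrays were taken by their titles. All animals were female and had been randomized, and their ages are not given in the sources used here. The other 8 animals received micronized estradiol at 0.25 mg per 1800 kcal, alone or with tamoxifen, and the estradiol-alone arrays serve below to ask where tamoxifen differed from the hormone. RNA was hybridised to arrays whose probes were built for another macaque, the rhesus, so that a probe set may read a cynomolgus transcript less well. Of the probe sets outside the array's own controls, 24956 carried 1 gene symbol, 18311 of these were bright enough to be tested, and they stand for 10705 genes, each followed through its brightest probe set.

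Tamoxifen binds the estrogen receptor and changes which cofactors the receptor recruits. In the breast it acts mainly as an antagonist, whereas in the uterus it can act as a partial agonist, and long use in women is associated with endometrial polyps, hyperplasia and cancer. The endometrium without ovarian hormones is a thin layer of glands and stroma over the muscle wall. Estrogen normally makes that epithelium divide and induces the progesterone receptor, and it acts on the glands largely through growth factors made by the stroma.

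Signals are the authors' scaled intensities, listed for arrays 1 to 4 of an arm, and a change is the difference of mean log2(signal + 4.80), tamoxifen minus control, with its standard error (SE) from limma. A gene is said to have risen or fallen when its Benjamini-Hochberg adjusted p, taken over all 31659 probe sets tested, was under 0.05. The number of arrays, 4 in each arm, limits the precision. The pseudocount of 4.80 makes the change of a dim gene smaller than its ratio of signals.

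Markers of cell types differed between the 8 arrays, most of all in tamoxifen 1 for smooth muscle, the tissue under the endometrium. Every probe set has a signal on every array, so a signal alone does not show which tissue was sampled. Summed signals over 16 smooth muscle genes were 38023 to 88868 in the tamoxifen arrays and 59126 to 72453 in the controls. Over 16 stroma fibroblast genes they were 52428 to 64035 in the tamoxifen arrays and 42128 to 48293 in the controls. The marker score is the mean over a list of each gene's log2 deviation from its 16-array mean. For smooth muscle it was -0.90 in tamoxifen 1, and 0.65, -0.06 and 0.59 in tamoxifen 2, 3 and 4, against -0.12 to 0.33 in the controls. Tamoxifen 2 and 4 thus lay above the control range and tamoxifen 1 below it. The epithelium score ran from -0.48 to 0.82 with tamoxifen, highest in tamoxifen 1 and lowest in tamoxifen 2, against -0.72 to -0.64 in the controls. None of the 16 smooth muscle genes tested rose or fell, and 0 had an unadjusted p under 0.05 in limma. In these bulk samples, more cells of a type and more RNA per cell cannot be told apart. The RNA ratios differed too. For actin, the control probe sets at the 3′ end against those at the 5′ end gave a log2 ratio, which tracks RNA integrity and amplification, that averaged 0.521 ± 0.043 with tamoxifen and 0.919 ± 0.11 in the controls (SD, n = 4 each), and the 2 arms did not overlap (two-sided exact permutation p = 0.0286, the smallest that 4 against 4 can give). The GAPDH ratio averaged -0.021 ± 0.074 with tamoxifen and 0.147 ± 0.054 in the controls, also without overlap (exact p = 0.0286, and 0.0286 after adjustment over these 2 tests). What part tissue makeup or RNA quality has in the changes below was not tested.

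**Figure D1:**
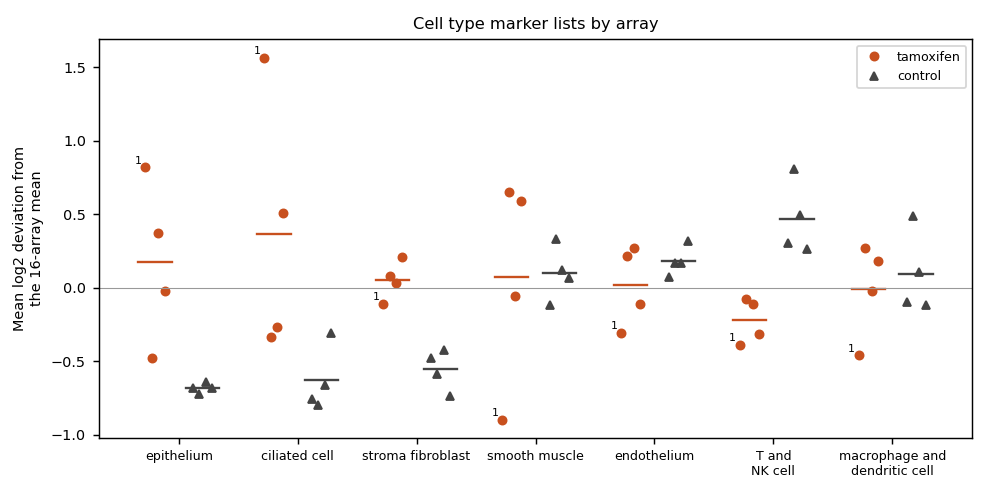
Marker scores of 7 cell type lists on each array, as the mean log2 deviation of the list's genes from their 16-array means; tamoxifen arrays are circles, control arrays triangles, horizontal lines are arm means, and tamoxifen 1 is labelled. The epithelium scores lie between -0.48 and 0.82 with tamoxifen and between -0.72 and -0.64 in the controls, while the smooth muscle score of tamoxifen 1, at -0.90, lies below all other arrays shown.

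Tamoxifen changed the levels of 1738 of 10705 genes, 16.2% of those tested. Of these, 920 rose (8.59% of genes) and 818 fell (7.64%). Counts within the gene lists below are to be read against these shares. More of the large changes were increases, with 319 genes more than 2-fold higher with tamoxifen and 119 more than 2-fold lower. The signals of the 2 arms did not overlap in 2434 genes, or 22.7%. The median change over all genes was -0.018. Without tamoxifen 1, 1152 genes passed, of which 1078 were among the 1738, and with the 8 arrays of the 2 arms fitted alone 1125 passed. Other tested probe sets of the changed genes, 1416 for 837 genes, moved in the same direction in 81.1% of cases. In 24 of the 1416 the other probe set passed the threshold in the opposite direction.

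The largest increase was in NPY, which encodes neuropeptide Y, a peptide transmitter of sympathetic nerves. Its signals were 587, 532, 2846 and 1060 with tamoxifen, against 2.30, 55.3, 63.9 and 64.6 in the controls, a change of 4.71 (SE 0.76, adjusted p = 0.00172). Control 1 lay far below the other controls. LGALS7B, which encodes galectin-7 of stratified epithelia, had 3734, 1076, 821 and 2400 with tamoxifen and 110, 22.5, 136 and 42.0 in the controls (4.64, SE 0.61, adjusted p = 0.000519). The neurofilament heavy chain gene NEFH had 847, 381, 585 and 572 with tamoxifen and 25.6, 12.2, 58.9 and 24.7 in the controls, a change of 4.20 (SE 0.48, adjusted p = 0.000269). In each of these, the lowest tamoxifen array lay well above the highest control. The connexin gene GJB6, a gap junction subunit of epithelia, read 188, 57.6, 171 and 70.8 with tamoxifen and 2.28, 8.12, 25.1 and 1.40 in the controls (3.30, SE 0.76, adjusted p = 0.0113); control signals this dim are noisy. MFSD2A, a transporter of lysophospholipids into cells, gave 557, 198, 347 and 400 with tamoxifen and 27.6, 13.6, 44.2 and 55.1 in the controls (3.30, SE 0.43, adjusted p = 0.000476).

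CPM, also among the 25 largest increases, encodes a membrane carboxypeptidase that trims basic residues from peptides, and had 3351, 571, 1188 and 1674 with tamoxifen and 92.0, 170, 177 and 148 in the controls (3.25, SE 0.42, adjusted p = 0.00048). MME, the membrane peptidase neprilysin and a marker of endometrial stroma, had 2399, 741, 1704 and 973 with tamoxifen, against 256, 151, 318 and 91.2 in the controls (2.80, SE 0.43, adjusted p = 0.00132). For TFPI2, an inhibitor of serine proteases, the signals were 508, 616, 1137 and 509 with tamoxifen and 86.1, 31.1, 106 and 73.8 in the controls (3.17, SE 0.57, adjusted p = 0.00299). All 4 tamoxifen arrays exceeded all controls in each of the 3 genes, as the rule for ranking them required. Tamoxifen 1 was highest for CPM and MME but not for TFPI2. The mucosal glycoprotein DMBT1 gave 1343, 1263, 627 and 391 with tamoxifen and 58.3, 87.5, 141 and 94.5 in the controls (3.08, SE 0.46, adjusted p = 0.00106). ATP6V0A4, a subunit of the proton pump of acid-secreting epithelia, gave 1611, 571, 1013 and 654 with tamoxifen and 116, 65.0, 181 and 119 in the controls (2.91, SE 0.34, adjusted p = 0.000287). The remaining members of the 25 included the serotonin receptor gene HTR1E (2.83), the adhesion receptor ADGRG2 (3.23), the secreted TAFA2 (2.74), the steroid-receptor-associated SRARP (2.80) and the slow troponin gene TNNT1 (2.82). The 3 array symbols without a gene name, LOC722315, LOC722305 and LOC714616, rose by 2.99, 2.87 and 2.80, and both other probe sets of LOC722305 changed in the opposite direction, without passing the threshold. Tamoxifen 1 gave the highest of the 4 tamoxifen signals for 16 of the 25 genes and tamoxifen 2 the lowest for 15. With any 1 array of either arm left out, 23 of the 25 still passed; TNNT1 had an adjusted p of 0.0515 without tamoxifen 2 and PAPPA2 of 0.109 without tamoxifen 3 where they were least certain.

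**Figure D2:**
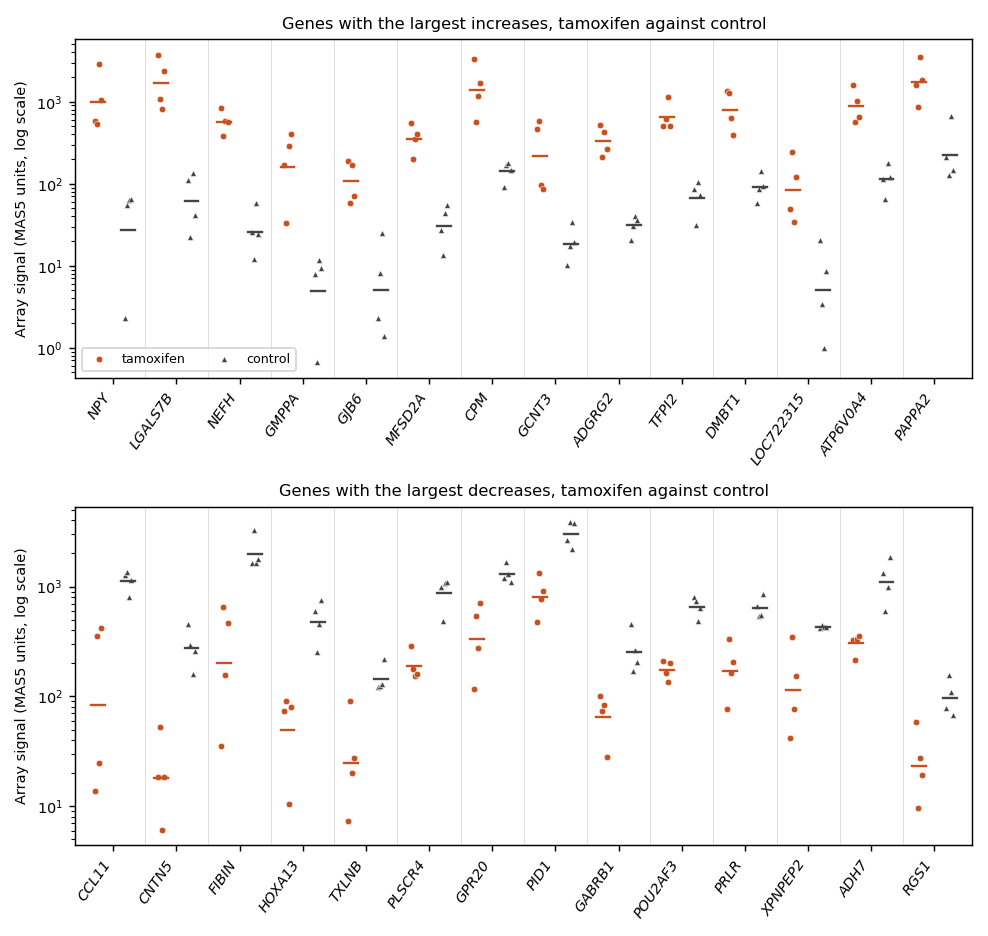
Signals on each array, on a log scale, of the 14 genes with the largest increases (upper panel) and the 14 with the largest decreases (lower panel) among those past the threshold without overlap; circles are tamoxifen arrays, triangles control arrays, and lines geometric means of 4 arrays. NPY lies between 532 and 2846 with tamoxifen and at 64.6 or below in the controls, and CCL11 between 13.9 and 421 with tamoxifen and at 811 or above in the controls.

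The largest decrease was in CCL11, which encodes eotaxin, a chemokine that attracts eosinophils. Its signals were 13.9, 353, 24.6 and 421 with tamoxifen and 1268, 1360, 811 and 1143 in the controls (-3.56, SE 1.07, adjusted p = 0.0393). The 4 tamoxifen animals fell into a low pair, 1 and 3, and a pair closer to the controls, 2 and 4, and without tamoxifen 1 the adjusted p was 0.118. CNTN5, a neuronal cell adhesion molecule, had 18.4, 52.8, 6.13 and 18.4 with tamoxifen and 459, 291, 160 and 261 in the controls (-3.53, SE 0.62, adjusted p = 0.00273). HOXA13, the homeobox gene that marks the lowest part of the developing reproductive tract, had 73.6, 91.6, 10.6 and 80.8 with tamoxifen and 594, 253, 457 and 755 in the controls (-3.10, SE 0.52, adjusted p = 0.00192). Every tamoxifen array was below every control for each of these genes, as the rule for ranking them required. Tamoxifen 3 was the lowest for CNTN5 and HOXA13. PRLR, the prolactin receptor, had 77.3, 333, 163 and 206 with tamoxifen and 660, 541, 556 and 849 in the controls (-1.87, SE 0.42, adjusted p = 0.0104). POU2AF3, a cofactor of POU-domain transcription factors, was more even within the arms, at 212, 162, 134 and 199 with tamoxifen and 796, 732, 489 and 635 in the controls (-1.88, SE 0.23, adjusted p = 0.000363). PLSCR4, a phospholipid scramblase, had 288, 177, 152 and 160 with tamoxifen and 987, 489, 1069 and 1089 in the controls (-2.18, SE 0.28, adjusted p = 0.000422).

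Further genes among the 25 largest decreases follow. GABRB1, a subunit of the GABA receptor, fell by 1.89, and the retinol-oxidising dehydrogenase gene ADH7 fell by 1.84. SLC16A9, a carrier of monocarboxylates, had 123, 211, 197 and 240 with tamoxifen and 599, 744, 631 and 701 in the controls (-1.80, SE 0.39, adjusted p = 0.00855). RGS1, a regulator of G protein signalling in lymphocytes, changed by -1.81, and the histone gene H2BC8 by -1.54. PID1, an adaptor that dampens insulin signalling, changed by -1.90, and ART5, an ADP-ribosyltransferase, by -1.70. GPIHBP1, which anchors lipoprotein lipase to capillary walls, had 89.1, 38.5, 76.8 and 40.5 with tamoxifen and 134, 197, 209 and 268 in the controls (-1.69, SE 0.30, adjusted p = 0.00281). These 25 decreases were less certain than the 25 largest increases, as 11 lost the threshold when some array was left out, with an adjusted p up to 0.118. They were also smaller, at 2.87- to 11.8-fold, against 6.38- to 26.2-fold for the increases. The 11 that lost it were CCL11, FIBIN, TXLNB, GPR20, XPNPEP2, F2RL2, THSD7A, DIO3, the oxytocin receptor gene OXTR, the mast cell receptor gene FCER1A and PTPRC, the pan-leukocyte antigen CD45. TXLNB was bright enough to be tested in only 3 of the fits with 1 array left out. Tamoxifen 1 was the lowest tamoxifen array for 12 of the 25.

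The estrogen receptor gene itself did not pass the threshold. ESR1 had 642, 397, 488 and 490 with tamoxifen and 325, 242, 442 and 515 in the controls (0.44, SE 0.21, adjusted p = 0.18), with overlap. The progesterone receptor gene PGR, a classic estrogen-induced gene, had 1324, 1063, 1054 and 1085 with tamoxifen and 600, 373, 809 and 831 in the controls (0.85, SE 0.22, adjusted p = 0.022), without overlap, but with an adjusted p of 0.0639 without tamoxifen 1. GREB1, another widely used target of the receptor, had 852, 622, 654 and 558 with tamoxifen and 547, 708, 484 and 622 in the controls, and its change of 0.18 (SE 0.29, adjusted p = 0.722) did not pass. Of 21 estrogen-induced genes tested, 8 rose, none fell and 13 did not pass, with a median change of 0.76 against -0.018 for all genes. Among the 8, MYB, a transcription factor of proliferating cells, had 995, 278, 536 and 348 with tamoxifen and 69.8, 83.2, 81.2 and 82.2 in the controls (2.52, SE 0.31, adjusted p = 0.000363). IGF1 had 9291, 6094, 8909 and 7786 with tamoxifen and 2521, 3657, 3291 and 3969 in the controls (1.26, SE 0.18, adjusted p = 0.000762). The arms were well apart for both genes. Without control 1, 5 genes of the list rose. Of 12 steroid receptors and coregulators, 4 rose and 2 fell. PGRMC1, a membrane-associated progesterone receptor component, rose by 0.63 (SE 0.12, adjusted p = 0.00375). The glucocorticoid receptor gene NR3C1 had 497, 425, 426 and 414 with tamoxifen and 342, 300, 315 and 339 in the controls (0.44, SE 0.11, adjusted p = 0.0194), although neither of its other probe sets moved that way, and the receptor corepressor NRIP1, named after its value was seen, changed by 0.69 (SE 0.21, adjusted p = 0.0386). The 2 that fell were GATA2, which partners the progesterone receptor in the uterus, at 952, 875, 957 and 843 with tamoxifen and 1769, 1484, 1396 and 1709 in the controls (-0.80, SE 0.11, adjusted p = 0.000533), and the coactivator NCOA2 (-0.36, SE 0.08, adjusted p = 0.0119). Without tamoxifen 1, 1 increase in this list passed, NR3C1 having an adjusted p of 0.0607 and NRIP1 of 0.104, and without control 1, 2 increases passed.

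Of 15 mucous and secretory genes, 9 rose, none fell and 6 did not pass. Their median change was 1.83, or 1.12 with all probe sets of a gene averaged, and 8 passed without tamoxifen 1. LYZ, the antibacterial enzyme lysozyme, had 4735, 7147, 3143 and 9602 with tamoxifen and 793, 2556, 663 and 586 in the controls (2.58, SE 0.49, adjusted p = 0.00388). CXCL17, a chemokine of mucosal surfaces, had 211, 239, 196 and 195 with tamoxifen and 34.2, 26.8, 24.2 and 38.1 in the controls (2.61, SE 0.33, adjusted p = 0.000422) with little spread within either arm. AGR2, a disulfide isomerase needed for mucin folding, had 5836, 1605, 2720 and 2272 with tamoxifen and 388, 413, 650 and 557 in the controls (2.48, SE 0.31, adjusted p = 0.000395). GCNT3, which builds branched mucin sugars, had 459, 586, 96.3 and 85.6 with tamoxifen and 10.3, 17.7, 33.7 and 19.2 in the controls (3.24, SE 0.56, adjusted p = 0.00244). Tamoxifen 1 was the highest tamoxifen array for AGR2 and DMBT1, tamoxifen 2 for CXCL17 and GCNT3, and tamoxifen 4 for LYZ. Of 13 epithelium markers, 4 rose and none fell. WFDC2, a protease inhibitor secreted by glands of the reproductive tract, had 5655, 1867, 3652 and 3617 with tamoxifen and 768, 807, 850 and 1091 in the controls (1.98, SE 0.37, adjusted p = 0.00374). MUC1, the transmembrane mucin, changed by 1.83 (SE 0.39, adjusted p = 0.0079), and the keratin gene KRT8 by 1.66 (SE 0.40, adjusted p = 0.0144). The adhesion molecule gene EPCAM had 3063, 950, 1723 and 1201 with tamoxifen and 955, 646, 633 and 629 in the controls (1.15, SE 0.32, adjusted p = 0.0275), where tamoxifen 2 lay just below control 1, and its adjusted p without tamoxifen 1 was 0.0773. Without tamoxifen 2, the array with the lowest epithelium score of its arm, 8 of the 13 markers passed. Of 10 ciliated cell markers, only AGR3 rose (1.94, SE 0.32, adjusted p = 0.00181), although all 10 changes were above 0. Their median was 0.85, or 0.45 without tamoxifen 1, and the score of the list was 1.57, -0.33, -0.26 and 0.50 in the 4 tamoxifen arrays, against -0.80 to -0.31 in the controls.

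Of 18 genes that pattern the uterus and its glands, 10 rose and 1, HOXA13, fell. FOXA2, the transcription factor that marks uterine glands, had 609, 186, 296 and 275 with tamoxifen and 57.0, 68.7, 74.9 and 65.4 in the controls (2.15, SE 0.35, adjusted p = 0.00185). MSX2, a homeobox gene of the uterine epithelium, had 1143, 429, 854 and 809 with tamoxifen and 227, 143, 276 and 199 in the controls (1.87, SE 0.35, adjusted p = 0.00359). HOXD10 had 5142, 4050, 5357 and 4267 with tamoxifen and 1385, 2872, 3678 and 1623 in the controls (1.08, SE 0.24, adjusted p = 0.00895), and the membrane protease gene PRSS8 changed by 1.40 (SE 0.32, adjusted p = 0.0118). HOXA10, which specifies the uterus, had 2910, 2866, 3628 and 2556 with tamoxifen and 2671, 1946, 2811 and 2959 in the controls, and its change of 0.21 (SE 0.13, adjusted p = 0.323) did not pass. HOXA11, its neighbour in the cluster, had 2476, 2594, 2290 and 2300 with tamoxifen and 2132, 1704, 1985 and 1646 in the controls (0.38, SE 0.11, adjusted p = 0.0284), with an adjusted p of 0.0773 without control 4. Without tamoxifen 1 the increases in this list numbered 5, and without control 2 they numbered 6.

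Of 12 hedgehog genes, 4 rose and none fell. Over the 12 genes the median change was 0.23, with 7 changes above 0 and 5 below, the lowest at -0.67. IHH, Indian hedgehog, is the ligand by which uterine epithelium signals to stroma, and had 2137, 872, 1441 and 1576 with tamoxifen and 192, 179, 377 and 142 in the controls (2.76, SE 0.30, adjusted p = 0.000256). Its lowest tamoxifen signal, 872, exceeded its highest control signal, 377. The 3 others act in the receiving cell. GLI1, a transcription factor and target of the pathway, had 628, 424, 410 and 505 with tamoxifen and 289, 249, 334 and 259 in the controls (0.78, SE 0.20, adjusted p = 0.0185). HHIP, a decoy receptor that the pathway induces, had 220, 82.6, 94.5 and 111 with tamoxifen and 23.8, 41.3, 76.1 and 84.4 in the controls (1.14, SE 0.33, adjusted p = 0.034), and SMO, the signal transducer, changed by 0.41 (SE 0.13, adjusted p = 0.0462). The ligand passed in each fit with 1 array left out, but the receiving genes did not: without tamoxifen 1 the adjusted p was 0.0594 for GLI1, 0.103 for HHIP and 0.122 for SMO. Without tamoxifen 4, and again without control 2, 2 hedgehog genes rose. The receptor gene PTCH1, named after its value was seen, changed by 0.90 (SE 0.37, adjusted p = 0.123) and did not pass.

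Among 29 WNT genes, 5 rose and 1 fell, and with any of tamoxifen 1, 3 and 4 or controls 1, 2 and 4 left out the increases numbered 2 or 3. WNT11 had 227, 135, 330 and 245 with tamoxifen and 99.4, 126, 98.4 and 95.1 in the controls (1.07, SE 0.22, adjusted p = 0.00719). FZD1, a WNT receptor, had 845, 860, 763 and 945 with tamoxifen and 520, 540, 638 and 476 in the controls (0.65, SE 0.12, adjusted p = 0.00337), and these 2 passed in each fit with 1 array left out. WNT5A, which acts in gland formation, changed by 0.89 (SE 0.24, adjusted p = 0.0231), WNT4, a stromal ligand in the uterus, by 1.53 (SE 0.48, adjusted p = 0.0451) and SFRP1, a secreted WNT antagonist, by 1.08 (SE 0.29, adjusted p = 0.0218). Their adjusted p reached 0.0732 without tamoxifen 1, 0.132 without tamoxifen 1 and 0.06 without tamoxifen 3. The receptor gene FZD4 fell, at 354, 537, 489 and 495 with tamoxifen and 803, 845, 831 and 782 in the controls (-0.81, SE 0.16, adjusted p = 0.00472), but its other probe set changed by 0.063 and did not pass (adjusted p = 0.945). Of 23 BMP and TGF beta genes, 1 rose and 1 fell, shares below those among all genes. They were ID1, a target of BMP signals (0.90, SE 0.26, adjusted p = 0.0331), and the coreceptor gene TGFBR3 (-0.77, SE 0.22, adjusted p = 0.0311), and both lost the threshold without tamoxifen 1.

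Of 17 IGF genes, 5 rose and 2 fell. Beside IGF1, the binding protein gene IGFBP2 had 2642, 3539, 3001 and 2991 with tamoxifen and 1115, 937, 1141 and 867 in the controls (1.58, SE 0.15, adjusted p = 0.000116). IGFBP4, a binding protein that holds IGF ligands, had 4427, 6326, 5910 and 5607 with tamoxifen and 3147, 3705, 2628 and 3513 in the controls (0.78, SE 0.17, adjusted p = 0.00876). The arms were apart for each of the 3, with little spread within them. PAPPA2, a protease that cleaves IGF binding proteins, had 1589, 871, 3513 and 1827 with tamoxifen and 210, 128, 673 and 146 in the controls (2.90, SE 0.90, adjusted p = 0.044). IGFBP5, named after its value was seen, changed by 1.89 (SE 0.60, adjusted p = 0.0485). These 2 lost the threshold without some arrays, PAPPA2 with an adjusted p of 0.109 without tamoxifen 3 and IGFBP5 of 0.111 without control 1. IRS2, an adaptor of the insulin and IGF receptors, fell, at 958, 1161, 1017 and 1158 with tamoxifen and 2284, 2744, 2341 and 2026 in the controls (-1.12, SE 0.20, adjusted p = 0.00314). The other decrease was in IGFBP3, also named after its value was seen (-1.03, SE 0.33, adjusted p = 0.0498). IGFBP3 lost the threshold whichever of the 8 arrays was left out. In each such fit 1 IGF gene was lower, and without tamoxifen 1, 3 or 4 or controls 1 or 2 the increases numbered 3.

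Of 19 EGF and FGF family genes, 2 rose (10.5%) and 1 fell (5.26%), close to the 8.59% and 7.64% among all genes. EGFR, the receptor for EGF, had 317, 330, 458 and 359 with tamoxifen and 96.4, 125, 155 and 189 in the controls (1.37, SE 0.19, adjusted p = 0.000793). BTC, betacellulin, which is a ligand of that receptor, had 130, 230, 224 and 180 with tamoxifen and 69.3, 93.7, 116 and 66.9 in the controls (1.10, SE 0.23, adjusted p = 0.00709). The signals of neither gene overlapped between the arms, and both passed in each fit with 1 array left out. FGFR3 (-0.67, SE 0.21, adjusted p = 0.0493) lost the threshold without some arrays (adjusted p = 0.141 without tamoxifen 4), and without tamoxifen 2, 4 genes of the family were higher.

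Of 17 listed retinoid genes tested, 4 rose and none fell. Over the 17 genes the median change was -0.022, with 8 changes above 0 and 9 below, the lowest at -1.09. ADH7, the retinol-oxidising dehydrogenase gene that fell, is not in that list. The 4 that rose carry retinoids or start their oxidation. CRABP2, which delivers retinoic acid to its nuclear receptor, had 192, 364, 328 and 571 with tamoxifen and 27.1, 75.3, 48.3 and 46.1 in the controls (2.74, SE 0.43, adjusted p = 0.00136). CRABP1, a cytoplasmic binder of retinoic acid, had 347, 87.1, 224 and 129 with tamoxifen and 23.4, 22.3, 19.0 and 28.1 in the controls (2.67, SE 0.50, adjusted p = 0.00358). RBP4, the retinol carrier, had 2394, 1339, 1450 and 1491 with tamoxifen and 146, 201, 541 and 238 in the controls (2.68, SE 0.48, adjusted p = 0.00303), and the retinol dehydrogenase gene RDH10 changed by 1.56 (SE 0.38, adjusted p = 0.0152). None of the 4 overlapped between the arms, and all 4 passed with any 1 array left out.

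**Figure D3:**
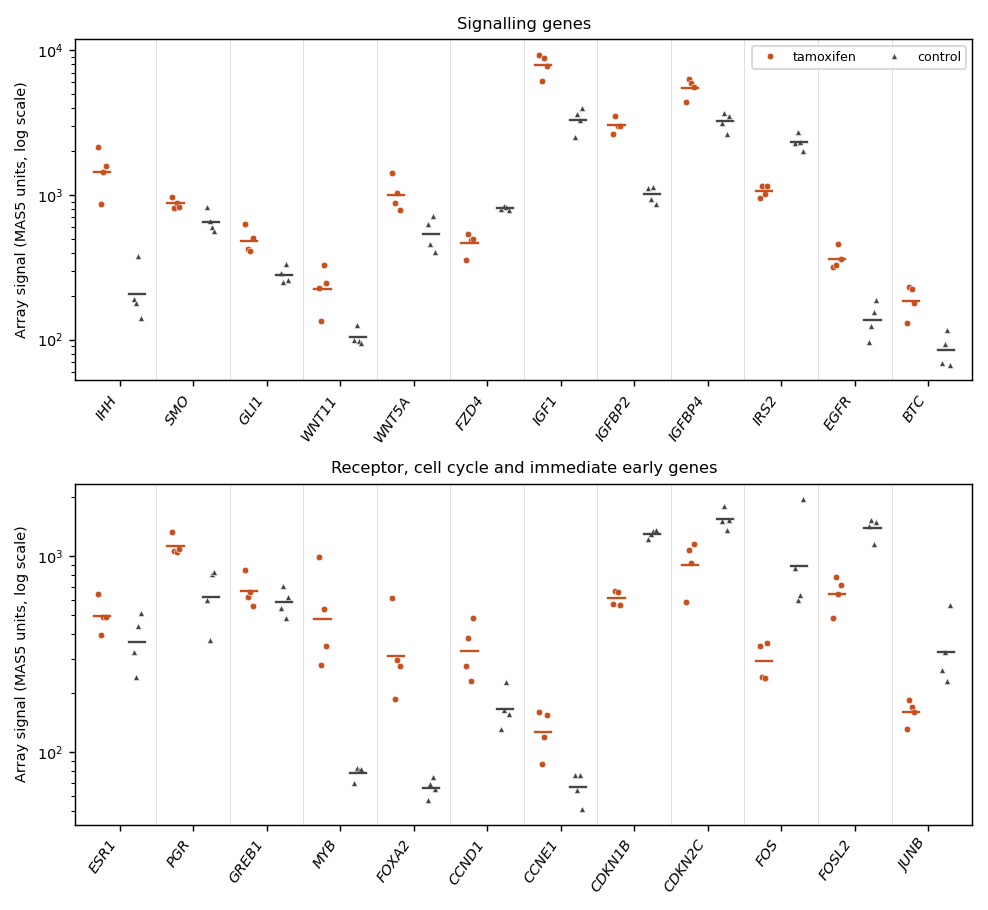
Signals on each array, on a log scale, of hedgehog, WNT, IGF and EGF genes (upper panel) and of receptor, cell cycle and immediate early genes (lower panel); circles are tamoxifen arrays, triangles control arrays, and lines geometric means of 4 arrays. IGFBP2 lies between 2642 and 3539 with tamoxifen and between 867 and 1141 in the controls, whereas ESR1 and GREB1 overlap between the arms.

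Some regulators of the entry into the cell cycle passed, in either direction, while no mitosis gene passed. Of 14 cyclins, kinases and inhibitors of G1, 2 rose and 2 fell. Each is 14.3% of the list, against 8.59% higher and 7.64% lower among all genes. CDKN1B, the inhibitor p27, had 569, 664, 658 and 567 with tamoxifen and 1220, 1296, 1347 and 1354 in the controls (-1.08, SE 0.16, adjusted p = 0.00114). CDKN2C, the inhibitor p18, had 581, 1070, 924 and 1149 with tamoxifen and 1513, 1808, 1352 and 1524 in the controls (-0.77, SE 0.19, adjusted p = 0.0151). All tamoxifen signals were below all control signals for both inhibitors, and both passed with any 1 array left out. The cyclin D1 gene CCND1 had 276, 381, 232 and 485 with tamoxifen and 132, 164, 229 and 158 in the controls (0.96, SE 0.24, adjusted p = 0.0174). For cyclin E1, CCNE1 had 161, 87.0, 120 and 155 with tamoxifen and 77.0, 64.1, 76.8 and 51.4 in the controls (0.89, SE 0.26, adjusted p = 0.0374). The cyclins were less certain, with adjusted p of 0.0552 without tamoxifen 4 for CCND1 and of 0.103 without tamoxifen 1 for CCNE1, and without tamoxifen 4 neither passed. None of 15 mitosis genes passed in limma, and 3 of them had an unadjusted p under 0.05. Their median change was 0.20, with 9 changes above 0 and 6 below. The motor gene KIF4A changed by 0.79 (adjusted p = 0.0799) and the kinetochore gene ZWINT by 1.17 (adjusted p = 0.0932). Neither passed, although ZWINT did in 1 of 18 alternative fits. The proliferation marker MKI67 had 62.4, 34.6, 25.5 and 45.6 with tamoxifen and 31.0, 39.2, 48.2 and 54.1 in the controls (-0.07, SE 0.28, adjusted p = 0.897), and TOP2A, the topoisomerase of dividing cells, had 145, 21.9, 20.2 and 117 with tamoxifen and 41.1, 7.03, 60.2 and 43.7 in the controls (0.71, SE 0.65, adjusted p = 0.506). Tamoxifen 1 and 4 were the higher pair for both genes. Of 17 replication genes, GINS1 rose (0.49, SE 0.12, adjusted p = 0.0189, and 0.0589 without tamoxifen 1) and the polymerase subunit gene POLE2 fell (-0.30, SE 0.07, adjusted p = 0.0118). Each is 5.88% of the list, below the shares among all genes.

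Immediate early genes, which cells switch on within minutes of a stimulus, were lower or did not pass. Of 19, none rose and 5 fell. FOS had 347, 242, 238 and 363 with tamoxifen and 868, 596, 633 and 1957 in the controls (-1.60, SE 0.31, adjusted p = 0.00448). FOSL2 had 485, 784, 640 and 710 with tamoxifen and 1417, 1522, 1158 and 1498 in the controls (-1.10, SE 0.18, adjusted p = 0.00166), and JUNB had 132, 186, 170 and 160 with tamoxifen and 261, 326, 231 and 564 in the controls (-0.99, SE 0.23, adjusted p = 0.0114). The arms did not overlap for these 3 subunits of AP-1. KLF6 changed by -0.80 (SE 0.19, adjusted p = 0.0143) and GADD45B by -0.47 (SE 0.14, adjusted p = 0.0387). Between 4 and 5 of the 19 were lower in each fit with 1 array left out.

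Of 16 stroma fibroblast markers, 6 rose and none fell, with a median change of 0.83. Of the changes, 12 were above 0 and 4 below, the lowest at -1.13. Signals did not overlap between the arms for 7 that were higher and 1 that was lower, against 22.7% of all genes. COL1A2, a chain of type I collagen, had 9445, 11196, 7874 and 11850 with tamoxifen and 4095, 3248, 3360 and 4690 in the controls (1.39, SE 0.15, adjusted p = 0.000252). Its partner COL1A1 had 3630, 4109, 3018 and 4417 with tamoxifen and 1724, 1746, 1036 and 1451 in the controls (1.36, SE 0.24, adjusted p = 0.00242), and THY1, a surface glycoprotein of fibroblasts, changed by 1.57 (SE 0.27, adjusted p = 0.00233). Of 33 extracellular matrix genes, 11 rose and 1 fell, and without tamoxifen 1 those numbers were 10 and 0. COL6A3, of type VI collagen, had 9441, 9823, 10327 and 10795 with tamoxifen and 6941, 6743, 5757 and 6461 in the controls (0.64, SE 0.08, adjusted p = 0.000301). P4HA2, a prolyl hydroxylase of collagen, changed by 0.93 (SE 0.14, adjusted p = 0.00122). COL15A1 changed by 0.83 (SE 0.11, adjusted p = 0.00048), but its other probe set changed by -0.12 and did not pass. The gene that fell, COL5A2, changed by -0.42 (SE 0.13, adjusted p = 0.0384) and was named after its value was seen. Of 23 proteases and inhibitors, 6 rose and 1 fell. ADAM12, a metalloprotease of growing and remodelling tissue, had 1272, 254, 300 and 550 with tamoxifen and 68.1, 74.3, 173 and 42.1 in the controls (2.54, SE 0.58, adjusted p = 0.0105). SERPINE2, an inhibitor of serine proteases, changed by 1.06 (SE 0.19, adjusted p = 0.00299), and the lysosomal cathepsin gene CTSL by -0.55 (SE 0.15, adjusted p = 0.0235). The stroma score was -0.11 to 0.21 with tamoxifen and -0.74 to -0.43 in the controls, without overlap.

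**Figure D4:**
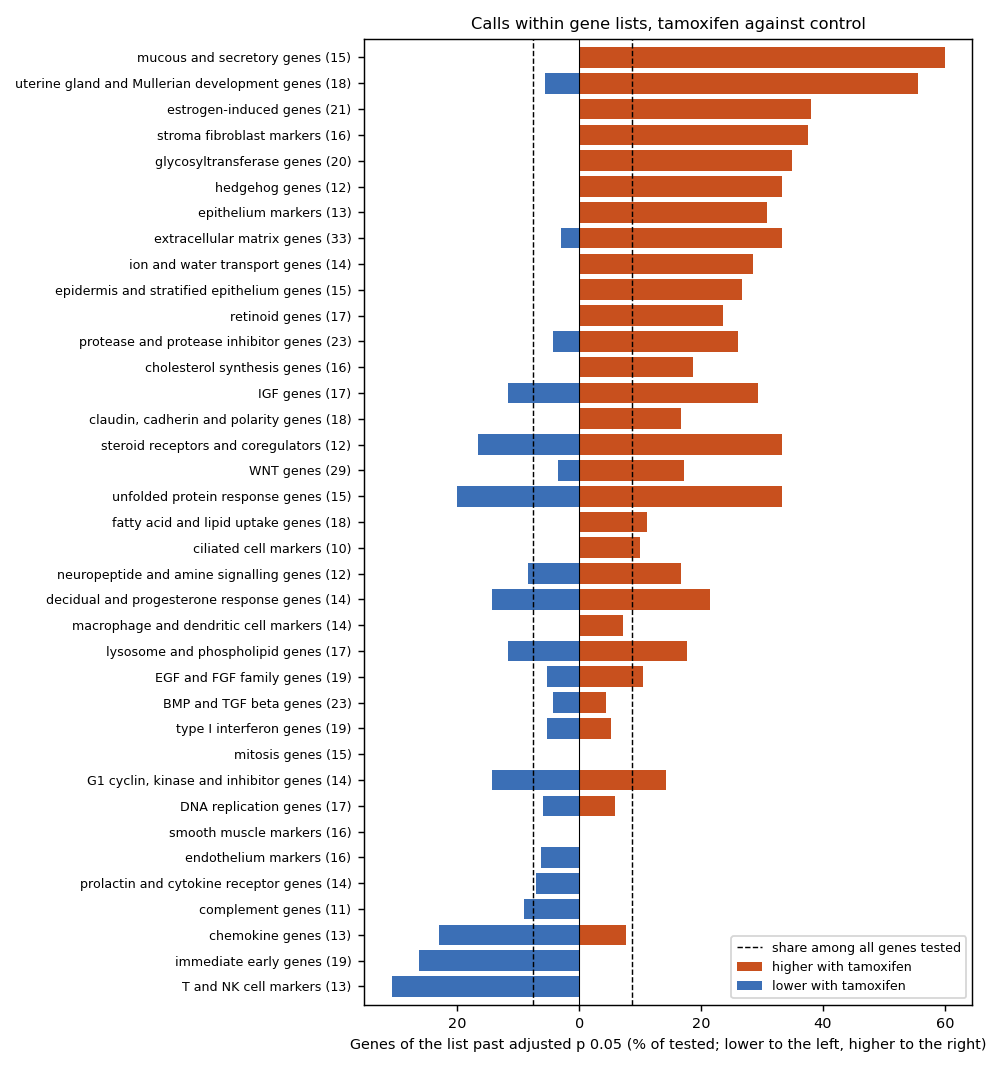
Share of the tested genes of each list that passed the threshold, tamoxifen against control, with increases to the right and decreases to the left; lists with at least 10 genes tested are shown with their number of genes in brackets. Dashed lines give the shares among all 10705 genes, 8.59% higher and 7.64% lower. Mucous and secretory genes reach 9 of 15 higher, and T and NK cell markers 4 of 13 lower.

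Of 20 glycosyltransferase genes, 7 rose, none fell and 13 did not pass, with a median of 0.48, and 7 were higher without tamoxifen 1 as well. Outside the mucins, ST3GAL5, the sialyltransferase that starts ganglioside synthesis, had 906, 543, 837 and 684 with tamoxifen and 240, 200, 317 and 226 in the controls (1.57, SE 0.18, adjusted p = 0.000295). B4GALT1, a galactosyltransferase of the Golgi, had 2560, 1900, 2148 and 1924 with tamoxifen and 1044, 1168, 960 and 906 in the controls (1.06, SE 0.12, adjusted p = 0.000269). ST6GAL2 changed by 2.17 (SE 0.47, adjusted p = 0.00793) and GMPPA, a regulator of GDP-mannose supply, by 3.90 (SE 0.67, adjusted p = 0.00227). GMPPA had 171, 33.5, 290 and 401 with tamoxifen and 7.94, 0.663, 11.7 and 9.30 in the controls, with tamoxifen 2 well below the other tamoxifen arrays. Of 15 genes in the unfolded protein response list, which holds chaperones of the endoplasmic reticulum, 5 rose and 3 fell. The disulfide isomerase gene PDIA6 had 2450, 1922, 2006 and 2040 with tamoxifen and 1251, 1423, 1221 and 1171 in the controls (0.73, SE 0.11, adjusted p = 0.000879), and PDIA4, PDIA3, the chaperone gene DNAJB11 and MANF changed by 0.73, 0.56, 0.59 and 0.43, the last with an adjusted p of 0.0653 without tamoxifen 1. The 3 that fell, named after their values were seen, were the stress factor gene DDIT3 (-0.54), HERPUD1 (-0.35) and EDEM1 (-0.31), which act in the stress response and in disposal of misfolded proteins. None of these 3 passed with any of tamoxifen 1, 2 and 4 or controls 2 and 3 left out.

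Transport and lipid genes follow, with counts to be read against 8.59% higher and 7.64% lower among all genes. Of 14 ion and water transport genes, 4 rose and none fell. The sulfate transporter gene SLC26A2 had 2274, 722, 2490 and 2221 with tamoxifen and 513, 551, 595 and 524 in the controls (1.66, SE 0.32, adjusted p = 0.00451), with tamoxifen 2 far below the other tamoxifen arrays but still above every control. SCNN1G, a subunit of the epithelial sodium channel, changed by 1.51 (SE 0.39, adjusted p = 0.0199), the chloride channel gene CFTR by 1.52 (SE 0.48, adjusted p = 0.0472) and the sodium pump gene ATP1B1 by 0.94 (SE 0.23, adjusted p = 0.0163). Without tamoxifen 1 or tamoxifen 3, 2 of the 4 passed. CFTR was bright enough to be tested in only 5 of the fits with 1 array left out. Among 18 claudin, cadherin and polarity genes, 3 rose and none fell; the mesenchymal cadherin gene CDH11 had 3237, 1783, 2014 and 2240 with tamoxifen and 1015, 961, 1227 and 806 in the controls (1.18, SE 0.20, adjusted p = 0.00234), and ESRP2, a splicing factor of epithelial cells, changed by 1.45 (SE 0.32, adjusted p = 0.00866). Without tamoxifen 2, 6 of the 18 were higher. Of 16 cholesterol synthesis genes, 3 rose and none fell, but none passed without tamoxifen 1 or tamoxifen 3. They were CYP51A1 (0.75, SE 0.21, adjusted p = 0.0262), STARD4 (0.69, SE 0.19, adjusted p = 0.0275) and TM7SF2 (1.02, SE 0.31, adjusted p = 0.0401). LPL, lipoprotein lipase, had 967, 972, 1210 and 669 with tamoxifen and 293, 571, 560 and 325 in the controls (1.15, SE 0.27, adjusted p = 0.012), and its 3 other probe sets were divided, 1 of them changing in the same direction. The lysosome membrane genes CD63 and LAMP2 changed by 0.57 (SE 0.07, adjusted p = 0.000489) and 0.67 (SE 0.12, adjusted p = 0.00299), while the lysosomal genes CTSL (-0.55) and NPC1 (-0.48) fell and passed only in some of the fits with 1 array left out. Of 17 lysosome and phospholipid genes in all, 3 rose (17.6%) and 2 fell (11.8%), against 8.59% and 7.64% among all genes. CD63 ranged only from 5018 to 5309 with tamoxifen and from 3382 to 3642 in the controls.

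Markers of leukocytes fell or did not pass, apart from LYZ and the secreted CXCL17 described with the mucous genes. Of 13 T and NK cell markers, none rose and 4 fell, with a median of -0.87, or -0.54 without tamoxifen 1. EOMES, a transcription factor of NK cells and cytotoxic T cells, had 39.7, 67.1, 54.0 and 43.7 with tamoxifen and 82.4, 129, 111 and 164 in the controls (-1.16, SE 0.26, adjusted p = 0.0104). CD8A had 47.7, 92.2, 98.1 and 67.9 with tamoxifen and 124, 224, 127 and 161 in the controls (-1.02, SE 0.28, adjusted p = 0.0272), CD8B changed by -0.88 (SE 0.25, adjusted p = 0.0301) and the granule protein gene NKG7 by -0.91 (SE 0.26, adjusted p = 0.0325). GZMB, granzyme B, had 328, 488, 410 and 382 with tamoxifen and 823, 1640, 1159 and 524 in the controls, and its change of -1.25 (SE 0.43, adjusted p = 0.067) did not pass although the arms did not overlap. The score of the list was -0.39 to -0.08 with tamoxifen and 0.26 to 0.81 in the controls, highest in control 2. EOMES passed with any 1 array left out, but 1 gene in all passed without tamoxifen 1, tamoxifen 4 or control 2, and 2 without tamoxifen 3 or control 3. IL15, which sustains uterine NK cells, had 227, 294, 333 and 168 with tamoxifen and 563, 641, 421 and 468 in the controls (-1.05, SE 0.22, adjusted p = 0.0067). Of 14 macrophage and dendritic cell markers, LYZ alone passed, and 12 of the 14 changes were below 0. Among 13 chemokines, CXCL17 rose and CCL11, CCL2 and CXCL16 fell. CCL2 had 30.4, 81.3, 40.5 and 121 with tamoxifen and 363, 399, 75.7 and 363 in the controls (-2.00, SE 0.57, adjusted p = 0.0305), with control 3 inside the range of the tamoxifen arrays, and the decreases numbered 0 without control 2 and 1 without tamoxifen 1, tamoxifen 3, control 1 or control 4. Of 19 type I interferon genes, ISG20, an exonuclease, rose (1.92, SE 0.34, adjusted p = 0.00293) and OAS1 fell (-0.34, SE 0.10, adjusted p = 0.0374), with 2 of the 4 other probe sets of OAS1 changing in its direction and an adjusted p of 0.098 without control 1. These counts are each 5.26% of the interferon list, below the shares among all genes. VWF, the clotting factor of endothelium, was the only marker of 16 to pass for that cell type (-0.75, SE 0.23, adjusted p = 0.0422, and 0.125 without tamoxifen 1). Its other probe set changed by 0.05 and did not pass. That 1 marker is 6.25% of the list, below the 7.64% of all genes that fell.

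Tamoxifen was then set against estradiol given alone, as a test of where the drug differed from the hormone. The smooth muscle score was -2.96 in estradiol 4, against 0.22, 0.20 and 0.34 in estradiol 1, 2 and 3. What part this has in the differences below was not tested. Among the 10705 genes 76 differed (0.71%), of which 16 were higher with tamoxifen (0.149%) and 60 lower (0.56%), and 762 (7.12%) did not overlap. Of the 60 lower genes, 47 did not pass against control, and of the 16 higher genes 9 had also risen against control; these counts share the tamoxifen arrays. The count depended on single estradiol arrays. No gene passed in limma without estradiol 1 (1154 with an unadjusted p under 0.05) or with the 8 arrays of the 2 arms fitted alone (1311), 4 passed without estradiol 4 and 279 without estradiol 3. Without tamoxifen 2 or tamoxifen 3, 2 genes passed, 20 without tamoxifen 4, 31 without estradiol 2 and 145 without tamoxifen 1, so each gene below is past the threshold in the full set of arrays and not in all subsets.

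Of 15 mitosis genes tested, 5 were lower with tamoxifen than with estradiol, none was higher and 10 did not pass, with a median difference of -1.51. MKI67 had 62.4, 34.6, 25.5 and 45.6 with tamoxifen, against 167, 143, 70.2 and 161 with estradiol, a difference of -1.57 (SE 0.28, adjusted p = 0.0289). CENPF, a kinetochore protein, had 166, 72.4, 93.0 and 191 with tamoxifen and 472, 449, 255 and 519 with estradiol (-1.72, SE 0.28, adjusted p = 0.0256). The motor protein gene KIF23, needed for the last step of cell division, had 51.5, 20.7, 37.7 and 52.4 with tamoxifen and 194, 149, 70.3 and 191 with estradiol (-1.75, SE 0.33, adjusted p = 0.0289). For ZWINT, also of the kinetochore, the difference was -2.31 (SE 0.44, adjusted p = 0.0304) and for the motor gene KIF4A -1.50 (SE 0.29, adjusted p = 0.0304). Estradiol 3 was the lowest estradiol array for all 5 and came within the tamoxifen range for KIF4A alone. Outside the list, CKAP2, a spindle protein, differed by -1.95 (SE 0.36, adjusted p = 0.0289) and the microtubule-depolymerising motor KIF2C by -1.57 (SE 0.29, adjusted p = 0.0289). TOP2A had 473, 480, 128 and 489 with estradiol, and its difference of -2.57 (SE 0.65, adjusted p = 0.0944) did not pass. Without estradiol 1 the adjusted p of these genes was between 0.099 and 0.141 where they had passed.

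DMKN, dermokine of stratified epithelia, had 411, 205, 431 and 221 with tamoxifen and 1547, 1444, 1204 and 3429 with estradiol (-2.52, SE 0.46, adjusted p = 0.0289). IL1A, interleukin 1 alpha, had 45.2, 27.9, 42.0 and 14.3 with tamoxifen and 305, 123, 88.5 and 90.0 with estradiol (-1.98, SE 0.39, adjusted p = 0.0341). VCAM1, an adhesion molecule for leukocytes, had 219, 246, 226 and 270 with tamoxifen and 921, 566, 816 and 851 with estradiol (-1.68, SE 0.20, adjusted p = 0.0144). VCAM1 was also lower with tamoxifen than in the controls, whose signals were 375, 441, 373 and 438 (-0.75, SE 0.20, adjusted p = 0.0245), although not without tamoxifen 1 (adjusted p = 0.0635). ADAMTS19 differed by -1.74 (SE 0.28, adjusted p = 0.0247) and LOC708576, without a gene name, by -1.59 (SE 0.25, adjusted p = 0.0247). On the other side, NPY was higher with tamoxifen, its estradiol signals being 62.1, 130, 113 and 18.9 (3.81, SE 0.76, adjusted p = 0.0364). CXCL17 had 45.3, 61.1, 39.3 and 23.9 with estradiol, all below the tamoxifen arrays (2.25, SE 0.33, adjusted p = 0.0247). WNT11 had 61.9, 53.7, 72.1 and 65.3 with estradiol (1.75, SE 0.22, adjusted p = 0.0151), and NGEF had 143, 124, 194 and 157 with tamoxifen and 54.7, 70.5, 38.5 and 53.6 with estradiol (1.44, SE 0.26, adjusted p = 0.0289). DCHS2, DAPK1, DUSP1 and SEMA6D were higher with tamoxifen than with estradiol by 0.93, 0.91, 0.84 and 1.08, and none of these 4 passed against control. GNG11 (0.75), ST3GAL5 (0.89) and B4GALT1 (0.63) were higher against both arms. For IGF1 the estradiol signals were 8403, 9217, 6074 and 8440, overlapping those of tamoxifen (adjusted p = 0.995).

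**Figure D5:**
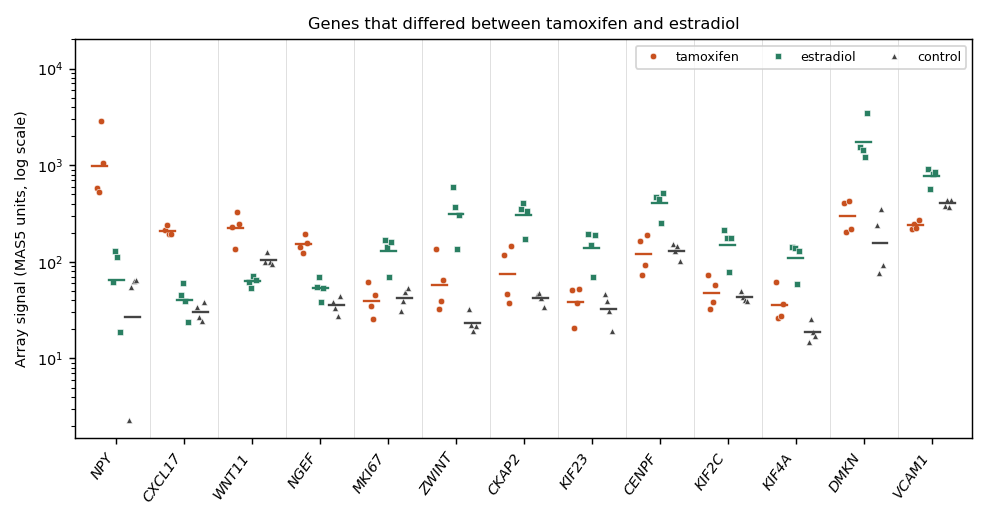
Signals on each array, on a log scale, of 13 genes that differed between tamoxifen and estradiol; circles are tamoxifen arrays, squares estradiol arrays, triangles control arrays, and lines geometric means of 4 arrays. MKI67 lies between 25.5 and 62.4 with tamoxifen and between 70.2 and 167 with estradiol, while CXCL17 lies between 195 and 239 with tamoxifen and between 23.9 and 61.1 with estradiol.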

How the data were processed

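Endometrial RNA of 16 animals was measured on 1 array each, and groups were taken from the sample titles. The deposited values are intensities, 1 per probe set and array, on a linear scale; MAS5, GCOS and Affymetrix Expression Console are named, without versions, in the submitters' processing notes, and per the labels' protocols the RNA was amplified in a single round. The trimmed mean of each array, without the outer 2% at each end, was 250.0, so the authors' values were taken as already scaled and were not normalized again; any change is therefore relative to the array's total. No detection calls were used here.

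After setting aside 99 control probe sets and the 40% dimmest by mean over all arrays, log2(signal + 4.80) of 31659 probe sets was fitted in limma 3.58.1 (R 4.3.3) with a mean per arm over 16 arrays, 12 residual degrees of freedom and a variance trend. As pseudocount served the 10th percentile over every deposited value. Symbols came from the platform's annotation; 361 probe sets with several symbols were not named. The fit was tested on simulated arrays.

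The comparison, the gene lists and the members were chosen with earlier results of these data known, so no list adds independent evidence of its direction. The 43 lists hold 953 symbols, of which 712 are annotated and 589 were tested, and 52 symbols stand in more than 1 list. Lists are described by counts and medians without a test; no list is set apart from other genes by them. The naming rule took the 25 highest and 25 lowest changes past the threshold without overlap. In each list it took the members with the lowest p, at most 5, whether or not they passed. It also took the 10 highest and 10 lowest differences from estradiol past the threshold without overlap. ESR1, PGR, GREB1, MKI67, TOP2A, IGF1, FOXA2, HOXA10, HOXA11 and HOXA13 were added throughout. The rule gave 243 genes, but the text names 178, some from outside it, of which 156 passed against control. Rule genes left out of the text include those of the smooth muscle list, none of which passed. Genes named outside the rule are marked in the text. Alternatives changed the pseudocount, the filter, the normalization, the arrays fitted, the variance model and a replicate block, and left out each array in turn.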

Additional observations from a re-analysis of the deposited data

Results flagged for a closer look

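Among the signals of 178 genes named above, each in 2 arms, 21 of 356 groups of 4 arrays (5.90%) had 1 array far from the other 3, judged by the gap to its nearest neighbour against the whole range of log2 values. Chance alone marks about 1 in 20 such groups. In the tamoxifen arm, tamoxifen 1 was high for PGR at 1324 (others 1054 to 1085), NR3C1 at 497 (414 to 426) and PDIA3 at 4427 (3680 to 3734), and low for IGFBP3 at 1984 (4555 to 4735). Tamoxifen 2 was low for SLC26A2 at 722 (2221 to 2490), and tamoxifen 3 for HOXA13 at 10.6 (73.6 to 91.6). In the control arm, control 1 was low for NPY at 2.30 (55.3 to 64.6) and for MYB at 69.8 (81.2 to 83.2), and high for EPCAM at 955 (629 to 646) and RDH10 at 131 (65.2 to 73.2). Control 2 was high for FIBIN at 3280 (1629 to 1769), ART5 at 244 (146 to 156), WNT11 at 126 (95.1 to 99.4) and CTSL at 2701 (2061 to 2130), and low for PLSCR4 at 489 (987 to 1089) and LAMP2 at 246 (329 to 336). Control 3 was low for CCL2 at 75.7 (363 to 399) and NCOA2 at 1616 (1774 to 1799), and high for AGR3 at 489 (310 to 328). Control 4 was high for TXLNB at 217 (121 to 130) and low for MANF at 953 (1116 to 1150).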

How the results depend on the processing

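Across 11 alternatives other than leaving out each array in turn, between 1125 and 1802 genes passed for tamoxifen against control, against 1738. Among them, a fit without both tamoxifen 1 and estradiol 4 gave 1485. The lowest count came from fitting the 8 arrays of the 2 arms alone, with 1125 genes (607 higher, 518 lower), a fit with fewer arrays. With 1 array left out, 1152 to 1671 genes passed, of which 630 to 937 were higher and 522 to 734 lower. For tamoxifen against estradiol, 0 to 279 genes passed with 1 array left out (0 to 74 higher, 0 to 205 lower), none with the 2 arms fitted alone (0 higher, 0 lower; 1311 with an unadjusted p under 0.05 in limma), and 294 with array weights (83 higher, 211 lower), and median centring left 38 lower genes; the causes were not tested. A fit with the replicate block, the number in the titles, gave 1549 genes for tamoxifen against control (846 higher, 703 lower) and 72 against estradiol (14 higher, 58 lower). The numbers were not taken to pair animals, as the arms held separate randomized animals. Deviations of same-numbered tamoxifen and control arrays correlated at -0.012 to 0.052, and 2 of 4 tamoxifen arrays correlated best with their own number. With 4 such pairs, these correlations cannot decide whether the numbers mark a shared processing step.

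Of 156 genes named and past the threshold against control, 98 kept the call and the direction in every alternative run and 99 in every fit with 1 array left out; none of the 156 reversed. All 25 named differences from estradiol lost the threshold in some such fit, and none reversed. Reversals were in mitosis genes that had not passed: KIF2C was -0.050 without tamoxifen 1 (and without tamoxifen 1 and estradiol 4), CENPF 0.13 and 0.017 without tamoxifen 2 and 3, and MKI67 0.12 and 0.036 without tamoxifen 3 and control 4. With 1 array left out KIF2C lay between -0.050 and 0.30, CENPF between -0.32 and 0.13 and MKI67 between -0.27 and 0.12. Averaging all probe sets of a gene moved the medians of stroma fibroblast markers to 0.62, of mucous and secretory genes to 1.12 and of extracellular matrix genes to 0.22 by more than the spread between arrays, and the other list medians by less. The actin ratio had an exact p of 0.0286 in each fit, the smallest that any of these fits can give. The GAPDH ratio had an exact p of 0.0571 without tamoxifen 1. Dim genes are limited by signal over background, and no detection call was used.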

Other observations

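Lists not described above are given here by their counts, to be read against the 16.2% of all genes that passed, 8.59% higher and 7.64% lower. Of 15 genes of epidermis and stratified epithelium, 4 rose and none fell: LGALS7B and GJB6, the desmosome gene DSP, at 1809, 420, 1012 and 899 with tamoxifen and 258, 185, 300 and 177 in the controls (2.00, SE 0.33, adjusted p = 0.0018), and PERP (1.12, SE 0.35, adjusted p = 0.0464), which lost the threshold without tamoxifen 1 (adjusted p = 0.136). Of 14 decidual and progesterone response genes, 3 rose and 2 fell. MAOA, which breaks down amines and is induced by progesterone, had 1838, 1345, 1136 and 883 with tamoxifen and 683, 791, 721 and 733 in the controls (0.78, SE 0.16, adjusted p = 0.0064), and GADD45A changed by 0.63 (SE 0.12, adjusted p = 0.00337), with 1 of its 2 other probe sets in that direction; the third that rose was WNT4, and the 2 that fell were PRLR and IL15. Of 12 neuropeptide and amine genes, NPY and MAOA rose and OXTR fell. In 7 nerve and glia markers NEFH alone passed (14.3%). Of 6 fat cell markers, LPL rose and GPIHBP1 fell. FABP4, a fat and capillary fatty acid carrier, had 40.3, 282, 21.9 and 915 with tamoxifen and 398, 623, 421 and 718 in the controls, and its change of -1.98 (SE 0.98, adjusted p = 0.192) did not pass. Of 11 complement genes 1 passed (9.09%, near the 7.64% of all genes that fell). CD55, which shields cells from complement, fell (-1.18, SE 0.32, adjusted p = 0.0258; adjusted p without tamoxifen 1 0.0806). Of 18 fatty acid and lipid uptake genes, LPL and VLDLR rose (11.1%, near the 8.59% of all genes), VLDLR by 0.85 (SE 0.24, adjusted p = 0.0322) with an adjusted p of 0.0954 without tamoxifen 1. Of 14 prolactin and cytokine receptor genes, PRLR alone passed (7.14%, near the 7.64% of all genes that fell), and 12 changes were below 0. Of 4 neutrophil, mast cell and eosinophil markers, FCER1A alone passed, and the median change was 0.035. No gene passed among 5 B and plasma cell markers, 3 steroid metabolism genes and 1 blood marker.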
